A study of Mus musculus with 72 samples.

Results

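The cytochrome P450 and conjugation enzyme genes described here are the genes whose symbol begins with Cyp and a digit, Ugt1 or Ugt2, Gsta, Gstm, Gstt, Gstp, Gsto, Sult, or Fmo and a digit, each read by its brightest probe set that names 1 gene. Their symbols fitted for 116 genes, and 63 of these had a mean above a log2 level of 2.42 over all arrays and form the set, out of 12534 genes tested in the series by the same limit. The other 53 were too dim to be tested, among them Cyp1a1, the classical target of the aryl hydrocarbon receptor, Cyp3a11, a main drug-oxidising enzyme of liver, and Cyp7a1, which starts bile acid synthesis. The dimmest genes kept were Cyp2b19 with a mean of 2.46 and Sult5a1 with 2.61, and the brightest left out were Gsta2 with 2.37 and Sult1e1 with 2.26. By family the set holds 1 Cyp1 gene, 17 Cyp2 genes, 2 Cyp3 genes, 6 Cyp4 genes, 4 P450 genes of sterol oxidation, 4 of steroid, retinoid or vitamin D metabolism or without a known substrate, 3 flavin monooxygenases (Fmo), 4 glucuronosyltransferases (Ugt2b), 15 glutathione transferases (Gst) and 7 sulfotransferases (Sult).

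The genes were measured in the colon of 72 wild type Balb/c mice with arrays that probe the 3 prime ends of transcripts. Each mouse has its own array, and 64 mice had colitis from trinitrobenzene sulfonic acid (TNBS), a hapten given rectally in ethanol at 70 µg per g body weight, and RNA was taken on day 4 from pieces of frozen, rolled colon. The 8 naive mice received none. Of the colitic mice 8 were untreated, 15 had received beforehand, at 10 mg/kg, an antibody to human CD20 as the control, 12 TNFR-Ig at 0.3 mg/kg, 14 the anti-TWEAK antibody mP2D10 at 10 mg/kg, and 15 the combination of TNFR-Ig at 0.3 mg/kg with anti-TWEAK at 10 mg/kg. TNFR-Ig is a soluble receptor that binds the cytokine TNF, and TWEAK is a second cytokine of the TNF family. The TNFR-Ig mice received no control antibody, and per the series design this dose was chosen because it acts weakly by itself. The study was run as 2 experiments, numbered 7 with 34 arrays and 10 with 38, and naive mice were in experiment 10 alone. Replicate 1 of the naive mice has labels that contradict each other on treatment, and leaving it out left 44 genes called between untreated and naive mice and 27 in place of 29 between combination and naive mice. The names of 2 combination arrays of experiment 7 carry the array series prefix of the experiment 10 arrays. All other arrays of experiment 7 carry another prefix, so array series and experiment nearly coincide. No age or sex of the mice is given in the sources used here.

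Cytochrome P450 enzymes insert oxygen into drugs, steroids, fatty acids and sterols, and flavin monooxygenases oxidise nitrogen and sulfur groups. Conjugation enzymes then add glucuronic acid, glutathione or sulfate, which makes the products soluble for export. In the colon these enzymes are known mainly from the epithelium, where they meet compounds of food, bile and bacteria, and some of them instead make or clear signalling lipids such as eicosanoids and oxysterols.

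A level below is the deposited log2 value, so 1 unit is a doubling. A change is a difference of group means from a limma fit to all arrays with a term for the experiment, given ± its standard error. A gene is called where its p, adjusted by the Benjamini-Hochberg method over all 12534 genes, is under 0.05. Levels of different genes come from different probes and are not compared. The tissue is whole colon, so fewer cells of a type and less RNA per cell cannot be told apart.

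Most of these enzyme genes were lower in colitis. Of the 63 genes, 37 were lower and 7 higher in untreated colitic than in naive colon, and the median change was -0.44. Among all genes tested 25.6% were lower and 22.2% higher, 47.8% in either direction, with a median change of -0.01. The falls were spread over nearly every family: 12 of 17 Cyp2 genes, 1 of 2 Cyp3, 4 of 6 Cyp4, 1 of 4 sterol and 1 of 4 steroid and vitamin genes, 2 of 3 Fmo, 7 of 15 Gst, 6 of 7 Sult and 3 of 4 Ugt2b genes. The rises were Cyp1b1, Cyp7b1, Cyp4f18, Cyp20a1, Gstp3, Gsta4 and Sult5a1. In 28 of the 63 genes (44.4%) no array of untreated colitis lay within the naive range, 24 of them lower and 4 higher, against 15.9% of all genes.

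**Figure D1:**
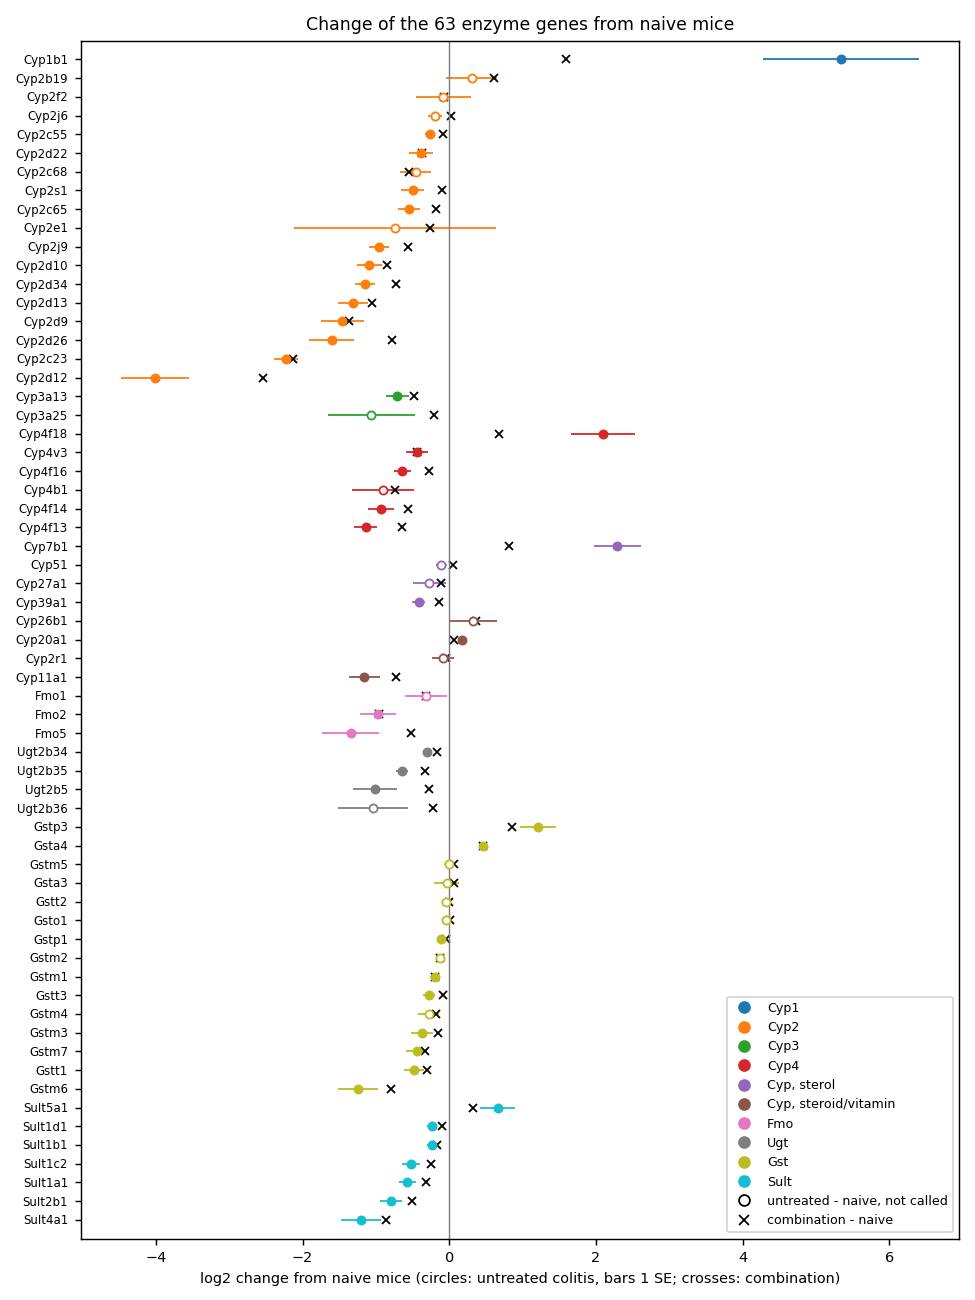
Log2 change of each of the 63 genes from naive colon (x axis) in untreated colitis (circles, bars 1 standard error, n = 8 and 8, coloured by family and filled at an adjusted p under 0.05) and with the combination (crosses, n = 15 and 8). Cyp2d12 (-4.01) and Cyp1b1 (5.34) stand at the ends, and 37 filled circles lie below 0 against 7 above it.

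The Cyp2d genes, relatives of the human drug-oxidising enzyme CYP2D6, fell together. They form a cluster on chromosome 15, and all 7 in the set were called lower: Cyp2d12, Cyp2d26, Cyp2d9, Cyp2d13, Cyp2d34, Cyp2d10 and Cyp2d22. Such neighbours are near copies of each other, so a probe set of one can also bind RNA of another, and their changes are not certain to be separate. The 250 bases before the start of 3 of them are shown because these genes moved together and because the upstream stretches can be set side by side. They come from RefSeq on the assembly GRCm38.p6, which is of the strain C57BL/6J and not Balb/c, and are printed 5′ to 3′ on the strand of the gene, with matches to the searched motifs in capitals. Cyp2d10 lies at chr15:82407195-82407444 on the minus strand, Cyp2d9 at chr15:82452127-82452376 on the plus strand and Cyp2d26 at chr15:82794246-82794495 on the minus strand.
Cyp2d10: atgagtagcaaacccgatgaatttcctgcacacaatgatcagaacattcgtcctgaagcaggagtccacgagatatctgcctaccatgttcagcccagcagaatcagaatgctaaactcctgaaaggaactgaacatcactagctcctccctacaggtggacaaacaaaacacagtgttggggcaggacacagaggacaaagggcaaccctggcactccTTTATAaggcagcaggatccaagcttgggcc
Cyp2d9: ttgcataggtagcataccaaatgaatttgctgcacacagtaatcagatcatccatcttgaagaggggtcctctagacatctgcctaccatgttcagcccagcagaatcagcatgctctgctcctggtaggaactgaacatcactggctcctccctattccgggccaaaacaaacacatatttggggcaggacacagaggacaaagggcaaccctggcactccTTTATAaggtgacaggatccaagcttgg
Cyp2d26: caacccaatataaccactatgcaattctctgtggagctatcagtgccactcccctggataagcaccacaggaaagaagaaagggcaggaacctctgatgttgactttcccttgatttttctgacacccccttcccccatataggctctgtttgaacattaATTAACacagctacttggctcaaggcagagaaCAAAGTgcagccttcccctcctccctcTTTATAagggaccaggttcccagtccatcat

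The stretches of Cyp2d10 and Cyp2d9 were alike at 215 of 259 alignment columns (83%), with a longest shared run of 51 bases, and that of Cyp2d26 matched them at 56.8% and 56.4%. All 3 hold TATAAA, read on the other strand as TTTATA, a short way before the start. That of Cyp2d26 also holds CAAAGT, the core of the site known for the epithelial factor HNF4A, and GTTAAT, read on the other strand, the core known for HNF1. Sequences were found for 52 of the 63 genes, none of them Cyp2d12, Cyp2d13, Cyp2d22 or Cyp2d34, and those genes had 66 starts. On either strand and allowing overlaps, TATAAA was in 15.2% of these 66 promoters and 12.4% of 32851 in the table, CAAAGT in 22.7% and 12.6%, GTTAAT in 9.09% and 6.43%, GCGTG, the core of the aryl hydrocarbon receptor's site, in 24.2% and 28.2%, and TGACNNNGC, that of NRF2, in 7.58% and 10.2%. A match describes the letters and is no evidence of binding.

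Cyp2d12 had the largest fall of the set. Its lowest, median and highest levels were 9.24, 9.77 and 10.26 in naive colon and 4.06, 5.63 and 6.14 in untreated colitis. The ranges did not overlap, and it fell by 4.01 ± 0.47 (16.1-fold, adjusted p = 1.63e-10, n = 8 and 8). Cyp2d26 was at 10.31, 10.54 and 11.21 in naive and 8.24, 8.79 and 9.67 in untreated colitic mice and fell by 1.60 ± 0.31 (adjusted p = 1.59e-05). Cyp2d9 fell by 1.46 ± 0.29, Cyp2d13 by 1.31 ± 0.20, Cyp2d34 by 1.15 ± 0.14 and Cyp2d10 by 1.09 ± 0.17, each also with no overlap of the groups. Cyp2d22 changed least, by -0.38 ± 0.17 (adjusted p = 0.0491). Its ranges overlapped, and the call was lost in 9 of the 16 fits that left out 1 array, though its second probe set changed by -1.07 ± 0.26.

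The Cyp2c genes oxidise arachidonic acid among other substrates, and Cyp2c55 is known as a P450 of mouse colon. Cyp2c23 fell by 2.23 ± 0.17 (4.68-fold, adjusted p = 3.05e-17). Its naive arrays were at 4.53, 4.84 and 5.82 and its untreated colitic arrays at 2.54, 2.72 and 3.4, with no overlap. The value 2.7216 stood on 19 of the 64 colitic arrays and on no naive one. Cyp2c55 moved by far less, from 14.13, 14.21 and 14.28 in naive to 13.58, 13.90 and 14.13 in untreated colitis, a change of -0.26 ± 0.07 (adjusted p = 0.00175). Cyp2c65 fell by 0.55 ± 0.15 (adjusted p = 0.00199), and Cyp2c68 was at -0.46 ± 0.21 (adjusted p = 0.0615).

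Of the other Cyp2 genes, Cyp2j9, of a family that makes epoxides of arachidonic acid, fell by 0.96 ± 0.14, and Cyp2s1, an epithelial P450, fell by 0.50 ± 0.16. Cyp2j6 was at -0.19 ± 0.09 (adjusted p = 0.0733), while its second probe set was at -0.68 ± 0.14 (adjusted p over all probe sets 0.000137), so its probe sets differ on whether it fell. Cyp2e1, which oxidises ethanol, spanned 6.35, 8.66 and 10.45 in naive and 2.25, 8.64 and 11.03 in untreated colitic mice. With this spread its change of -0.74 ± 1.38 did not pass (adjusted p = 0.684). Cyp2f2 and Cyp2b19 did not pass either.

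Among the Cyp3 genes, Cyp3a13, a drug and steroid oxidase of the intestine, fell from 12.57, 12.64 and 12.87 to 11.46, 11.98 and 12.80, by 0.71 ± 0.15 (adjusted p = 1.16e-04). Only the highest of its untreated arrays reached the naive range. Cyp3a25 was dim, within 0.1 of the table's floor on 4 of 8 untreated arrays, and its change of -1.06 ± 0.59 did not pass (adjusted p = 0.133).

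The Cyp4 genes hydroxylate the end of fatty acids and eicosanoids, and they moved in both directions. Cyp4f13 fell by 1.14 ± 0.16, Cyp4f14, which inactivates leukotriene B4, by 0.93 ± 0.18 (adjusted p = 1.40e-05), Cyp4f16 by 0.64 ± 0.12 and Cyp4v3 by 0.44 ± 0.15. These 3 Cyp4f genes lie on chromosome 17. Cyp4f14 was at 10.67, 11.07 and 11.41 in naive and 9.24, 9.97 and 10.91 in untreated colitic mice. Cyp4f18, known as the leukotriene B4 hydroxylase of mouse neutrophils, went the other way, from 2.34, 2.70 and 3.24 to 2.40, 4.61 and 6.71, a rise of 2.10 ± 0.44 (4.28-fold, adjusted p = 7.82e-05). Its lowest untreated array lay inside the naive range. Cyp4b1 was at -0.91 ± 0.42 (adjusted p = 0.0695).

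Cyp1b1, an enzyme that oxidises aryl hydrocarbons and estrogens, had the largest rise. On 5 of 8 naive arrays it was within 0.1 of the floor of the table, with levels of 2.08, 2.14 and 2.47, and in untreated colitis it stood at 3.71, 8.91 and 10.10. The groups did not overlap, and the change was 5.34 ± 1.07 (adjusted p = 3.54e-05, n = 8 and 8). No fold is given for it here or in the treatment comparisons, since arrays of the naive, control antibody and combination groups lie at the floor. A second, dimmer probe set rose by 0.86 ± 0.24 (adjusted p over all probe sets 0.00393). Its upstream sequence is shown as that of the largest rise; it lies at chr17:79715062-79715311 on the minus strand and holds 1 GCGTG, read on the other strand as CACGC.
Cyp1b1: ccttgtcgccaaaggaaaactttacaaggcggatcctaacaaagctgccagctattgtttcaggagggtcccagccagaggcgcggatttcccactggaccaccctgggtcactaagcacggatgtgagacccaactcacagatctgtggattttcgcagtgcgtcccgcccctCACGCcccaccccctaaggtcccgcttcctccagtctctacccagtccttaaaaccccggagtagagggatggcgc

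In the sterol group, Cyp7b1, the oxysterol 7-alpha-hydroxylase, rose from 6.26, 6.54 and 6.89 in naive to 7.63, 9.09 and 9.62 in untreated colitis. The groups did not overlap, and the rise was 2.29 ± 0.32 (4.90-fold, adjusted p = 2.95e-08); its second probe set rose by 2.83 ± 0.47. Cyp39a1, which hydroxylates 24-hydroxycholesterol, fell by 0.42 ± 0.09 (adjusted p = 1.35e-04). Cyp27a1, the sterol 27-hydroxylase, was at -0.27 ± 0.22 and Cyp51, lanosterol demethylase of cholesterol synthesis, at -0.11 ± 0.07, and neither passed. The dimmest probe set of Cyp51 changed by -0.88 ± 0.18 (adjusted p over all probe sets 7.52e-05), at odds with its 2 brighter ones.

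Cyp11a1, which cuts the side chain of cholesterol as the first step of steroid synthesis, was at 3.27, 3.75 and 5.71 in naive and 2.33, 3.01 and 3.11 in untreated colitic colon. The ranges did not overlap, and it fell by 1.16 ± 0.21 (adjusted p = 9.60e-06). It is a dim gene, and 17 colitic arrays share the value 3.1096. Cyp20a1, a P450 without a known substrate, rose by 0.18 ± 0.07 (adjusted p = 0.0208), a call lost in 3 of 16 fits that left out 1 array. Cyp26b1, which clears retinoic acid, and Cyp2r1, a vitamin D 25-hydroxylase, did not pass.

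Of the 3 flavin monooxygenase genes 2 fell. Fmo5 was at 9.92, 10.63 and 11 in naive and 8.21, 8.94 and 9.89 in untreated colitis, without overlap, and fell by 1.35 ± 0.38 (adjusted p = 0.00289). Fmo2 fell by 0.97 ± 0.25 (adjusted p = 9.47e-04), and its 4 detected probe sets ranged from -0.97 to -1.2. Within experiment 10 alone the change of Fmo2 was -0.60 and did not pass (adjusted p = 0.0836). Fmo1 was at -0.32 ± 0.29 (adjusted p = 0.37).

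The Ugt2b genes attach glucuronic acid to steroids, bile acids and drugs. Ugt2b34 was at 14.44, 14.51 and 14.57 in naive and 14.11, 14.19 and 14.29 in untreated colitis. The change of -0.30 ± 0.04 was small, yet the groups did not overlap (adjusted p = 5.53e-10). Ugt2b35 fell by 0.65 ± 0.08 (adjusted p = 1.33e-09) and Ugt2b5 by 1.01 ± 0.30 (adjusted p = 0.00362), both without overlap. Ugt2b36 was at -1.04 ± 0.48 (adjusted p = 0.0683).

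The sulfotransferases add sulfate to phenols and steroids. Sult1a1, the phenol sulfotransferase, was at 14.19, 14.26 and 14.32 in naive and 13.35, 13.61 and 13.93 in untreated colitis. It fell by 0.57 ± 0.12 with no overlap (adjusted p = 4.75e-05). Sult4a1, best known from brain, fell by 1.2 ± 0.27, Sult2b1, which sulfates cholesterol, by 0.79 ± 0.15, Sult1c2 by 0.52 ± 0.12, and Sult1b1 and Sult1d1 by 0.23 each (standard errors 0.06 and 0.07). Sult5a1 rose by 0.66 ± 0.24 (adjusted p = 0.0178), from naive levels of 2.19, 2.25 and 2.33, close to the floor, to 2.21, 2.92 and 4.53. Its call was lost with the compared groups alone (adjusted p = 0.172) and in 2 of 16 fits that left out 1 array.

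Of the glutathione transferases 7 of 15 were lower and 2 higher. Gsta4, which conjugates the lipid peroxidation product 4-hydroxynonenal, rose from 12.09, 12.24 and 12.36 to 12.57, 12.72 and 12.91. The groups did not overlap, and the rise of 0.46 ± 0.06 (1.38-fold) had an adjusted p of 6.46e-09. Gstp3, of the pi class, rose by 1.22 ± 0.24 (2.32-fold, adjusted p = 3.83e-05), from 7.37, 7.62 and 8.17 to 8.61, 9.13 and 9.42, again without overlap. Its neighbour Gstp1 on chromosome 19 changed by -0.11 ± 0.04 (adjusted p = 0.0177), a call lost with quantile normalization (0.0597). Gstm6 fell by 1.25 ± 0.27 (adjusted p = 1.08e-04) and Gstm1 by 0.20 ± 0.07 (adjusted p = 0.0108); the 7 Gstm genes are near copies on chromosome 3, so their probe sets may share RNA. Gsto1, an omega-class enzyme, was at -0.04 ± 0.06 and Gsta3 at -0.03 ± 0.17, and neither passed.

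**Figure D2:**
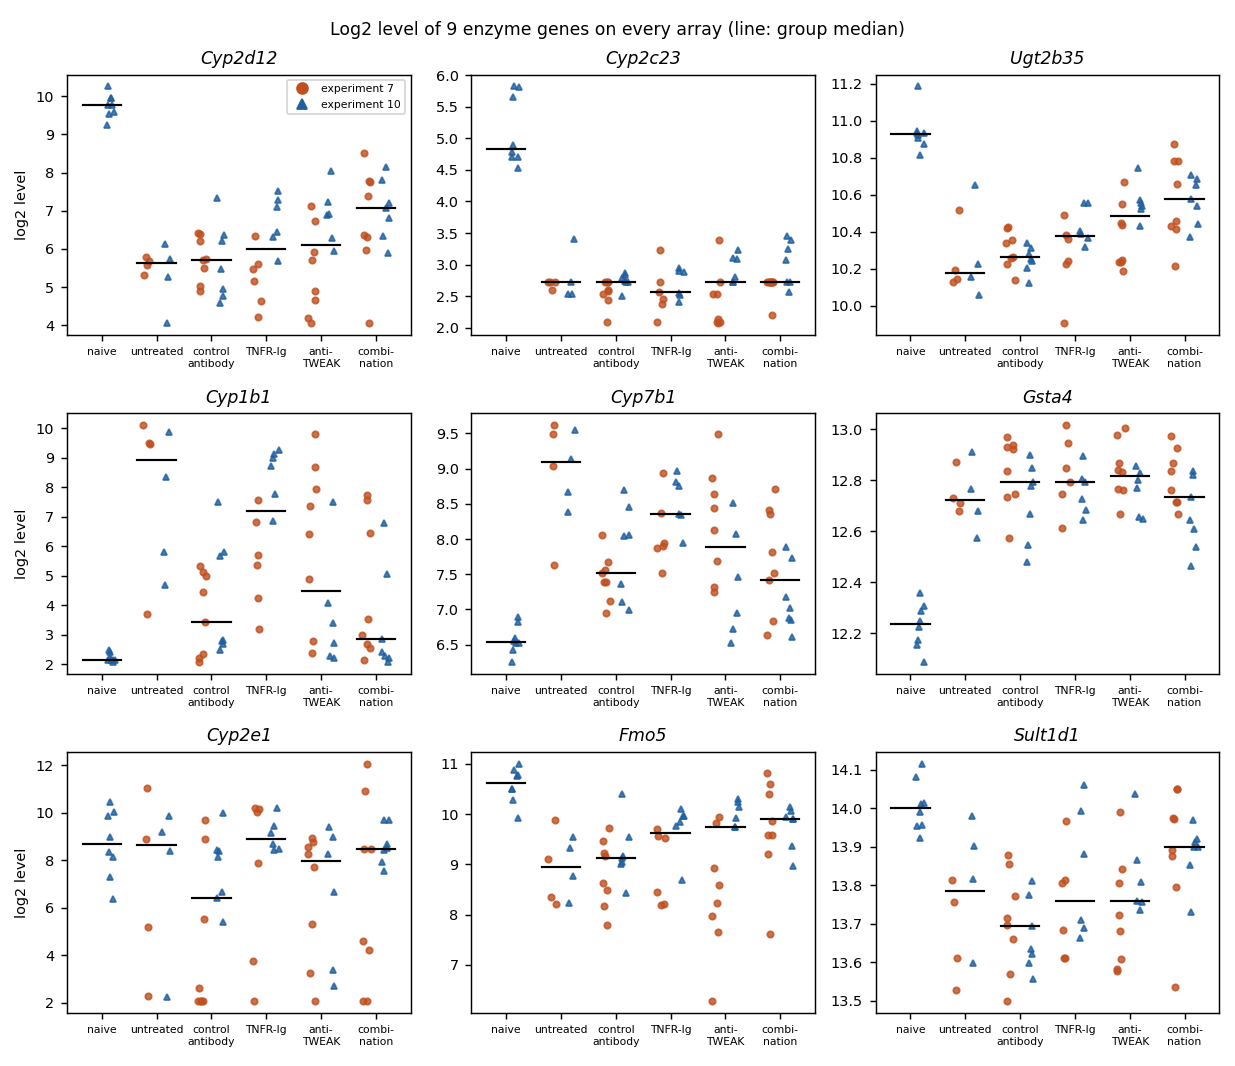
Deposited log2 level (y axis, its range set per gene) of 9 enzyme genes on each of the 72 arrays by group (x axis), circles for experiment 7, triangles for experiment 10 and a line at the group median. Cyp2d12 and Cyp2c23 lie at 9.24 or above and 4.53 or above in naive colon and lower on every untreated array, Cyp1b1 and Cyp7b1 have their lowest median in naive colon, and Gsta4 stays above its naive range in all colitic groups.

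The other genes of these pathways were counted over lists of known members. Of 17 nuclear receptors and sensors tested, 10 were lower and 1 higher in untreated colitis than in naive colon. Ppara fell by 1.11 ± 0.33, Pparg by 0.75 ± 0.13, the vitamin D receptor gene Vdr by 0.68 ± 0.08 and Nr1i2, which encodes the drug sensor PXR, by 0.64 ± 0.12. Nfe2l2, encoding NRF2, fell by 0.15 ± 0.05 (adjusted p = 0.0154), and Ahr, the aryl hydrocarbon receptor gene, rose by 0.15 ± 0.06 (adjusted p = 0.0204). Of 7 electron donors to P450 and related genes, Pgrmc1 and Cyb5b were lower, by 0.21 and 0.13, and Pgd was higher, by 0.14. Por, the P450 reductase gene, was not analysed here.

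Genes that supply the conjugating groups were divided, 4 higher and 9 lower of 14. Slc7a11, which imports cystine for glutathione, rose by 2.30 ± 0.30, while Gclc, of glutathione synthesis, and Papss2, of sulfate activation, fell by 0.45 each and the sulfate transporter gene Slc26a2 by 0.43. Of 31 other oxidising and hydrolysing enzymes 24 were lower and 2 higher. The carboxylesterase genes Ces1g and Ces2b fell by 1.90 ± 0.47 and 1.54 ± 0.32, and Hmox1, heme oxygenase 1, rose by 4.19 ± 0.41 and Aldh1a3, of retinoic acid synthesis, by 1.90 ± 0.23. Of 14 other conjugation enzymes 8 were lower, among them Ugt8a by 2.03 ± 0.35, Inmt by 1.59 ± 0.43 and Nat2 by 0.73 ± 0.10, and 2 were higher, with Nnmt, a nicotinamide methyltransferase, at 1.07 ± 0.29. Of 18 transporters 12 were lower and 3 higher: the organic cation and ergothioneine transporter gene Slc22a4 fell by 1.40, the bile acid exporter gene Slc51a by 1.29 and the prostaglandin transporter gene Slco2a1 by 0.88, and the efflux pump gene Abcb1b rose by 2.85 ± 0.51. These counts stand beside the 25.6% lower and 22.2% higher of all genes.

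Markers of the cells in the tissue moved with these changes, and their part in the result was not tested. Epithelial markers were lower for 7 of 12 genes with a median of -0.08, and the list's mean level was at 13.84, 13.87 and 13.89 in naive and 13.58, 13.65 and 13.81 in untreated colitis. Of 12 colonocyte markers 7 were lower and 2 higher, and their mean level went from 12.36, 12.42 and 12.57 to 11.63, 11.83 and 12.00. The goblet cell list went the other way, from 13.763, 13.805 and 13.888 to 13.805, 13.981 and 14.022, with overlap. All 10 neutrophil markers and all 12 macrophage markers were higher; the neutrophil list went from 2.74, 3.08 and 4.17, with Mmp8 and Ngp at the floor on every naive array, to 8.75, 10.42 and 11.74, and the macrophage list from 8.45, 8.73 and 9.05 to 9.5, 10.65 and 10.95. All 11 smooth muscle markers were lower, 7 of 10 fibroblast and 7 of 9 endothelial markers were higher, and 3 of 4 liver markers tested were lower. The liver list, of which Alb, Apoa1, Ahsg, Fgb and Fga were at the floor on all naive arrays, had a mean level of 5.42, 5.52 and 5.58 in naive and 5.08, 5.27 and 5.36 in untreated colitis, without overlap. No array was removed. Array medians lay between 4.60 and 4.77, and the excess of 3 prime over 5 prime signal of Actb, which grows as RNA degrades, between 0.93 and 1.5.

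The treatment comparisons follow. TNFR-Ig, anti-TWEAK and the combination are each set against the same control antibody mice, and the comparisons of the antibody and of naive colon share the untreated mice, so their values are given side by side and are not independent of each other.

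With the control antibody Cyp1b1, Cyp7b1, Cyp4v3, Cyp2d22 and Sult5a1 were lower than in untreated colitis. These 5 of the 63 genes were lower and 0 higher by limma (at an unadjusted p under 0.05, 9 lower and 4 higher, with 26.8% of all genes at that p in either direction), where 5.52% of all genes were lower. Cyp1b1 had levels of 2.08, 3.42 and 7.48 with the antibody against 3.71, 8.91 and 10.10 without it. The groups overlapped, and it fell by 3.72 ± 0.91 (adjusted p = 0.00657, n = 15 and 8). Cyp7b1 was at 6.95, 7.51 and 8.70 and fell by 1.32 ± 0.27 (2.49-fold, adjusted p = 0.00191). The other 3 were Sult5a1 (-0.62 ± 0.20, adjusted p = 0.0399), Cyp2d22 (-0.45 ± 0.14, 0.0301) and Cyp4v3 (-0.45 ± 0.13, 0.0204). Of 23 fits that left out 1 array, Sult5a1 was not called in 11, Cyp2d22 in 6 and Cyp4v3 in 1. The other genes that were higher in colitis did not pass here: Cyp4f18 was at -0.95 ± 0.38 (adjusted p = 0.0903), Gstp3 at -0.09 ± 0.21, Cyp20a1 at -0.06 ± 0.06 and Gsta4 at 0.03 ± 0.05. Cyp2d12 stood at 4.59, 5.70 and 7.34. Macrophage markers were lower for 11 of 12 genes, fibroblast markers for 6 of 10, endothelial markers for 5 of 9 and neutrophil markers for 3 of 10, and their part in the result was not tested.

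With TNFR-Ig, 5 genes were higher than with the control antibody and 0 lower by limma (at an unadjusted p under 0.05, 14 higher and 2 lower, with 21% of all genes at that p in either direction); 2.35% of all genes were higher. Cyp1b1 was at 3.18, 7.21 and 9.26, above the antibody group by 3.0 ± 0.80 (adjusted p = 0.0215, n = 12 and 15). Its call was lost without either of 2 TNFR-Ig arrays of experiment 10 (adjusted p 0.0549 and 0.053). Fmo2 was higher by 0.65 ± 0.19 (adjusted p = 0.0327), Cyp27a1 by 0.59 ± 0.17 (0.0315), Cyp2d22 by 0.57 ± 0.12 (0.00449) and Cyp4v3 by 0.42 ± 0.11 (0.0236). Of 27 fits that left out 1 array, Fmo2 and Cyp27a1 were not called in 8 each and Cyp4v3 in 3. The groups differ in antibody too, since the control mice had received it and the TNFR-Ig mice had none. Cyp1b1, Cyp2d22 and Cyp4v3 were also called lower with the control antibody than in untreated colitis. The part of the missing antibody in the higher levels with TNFR-Ig was not tested. Macrophage markers were higher for 5 of 12 genes, fibroblast markers for 3 of 10 and endothelial markers for 2 of 9, and their part was not tested. Against untreated colitis limma called 0 of the 63 genes and 3.01% of all genes; at an unadjusted p under 0.05, 6 were higher and 2 lower, with 17.7% of all genes at that p. The 5 genes with the smallest p, none of which passed, were Cyp4f14 at 0.51 ± 0.16 (adjusted p = 0.0522), Cyp2d34 at 0.37 ± 0.12 (0.074), Cyp4f13 at 0.34 ± 0.14 (0.17), Cyp2j9 at 0.28 ± 0.12 (0.204) and Cyp2r1 at -0.30 ± 0.13 (0.215).

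With anti-TWEAK, 2 of the 63 genes were higher than with the control antibody and 0 lower by limma (at an unadjusted p under 0.05, 11 higher and 0 lower, with 16.7% of all genes at that p in either direction), where 1.14% of all genes were higher. Fmo2 was at 8.30, 9.31 and 10.15 against 7.70, 8.71 and 10.39 and was higher by 0.65 ± 0.18 (adjusted p = 0.0321, n = 14 and 15). Cyp2d22 was higher by 0.41 ± 0.12 (adjusted p = 0.0432). Both calls lie close to the threshold: of 29 fits that left out 1 array, Fmo2 was not called in 5 and Cyp2d22 in 15. The next genes, which did not pass, were Ugt2b35 at 0.18 ± 0.06 (adjusted p = 0.08), Cyp4b1 at 0.84 ± 0.30 (0.121) and Cyp4v3 at 0.30 ± 0.11 (0.128).

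Over both experiments the combination had more called enzyme genes against the control antibody than TNFR-Ig or anti-TWEAK, all of them higher; within experiment 10 it had 15 and TNFR-Ig 17, 1 of each lower. Against the control antibody 19 of the 63 genes were higher and 0 lower by limma (at an unadjusted p under 0.05, 26 higher and 0 lower, with 42% of all genes at that p in either direction). Of all genes 14.2% were higher and 17% lower. The median change of the 63 was 0.19, and 53 lay above 0, against a median of 0.00 over all genes, of which 6167 of 12534 lay above 0. By family the called genes were 5 Cyp2, 1 Cyp3, 4 Cyp4, 1 sterol P450, all 3 Fmo, 1 Gst of 15, 3 Sult of 7 and 1 Ugt2b of 4.

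Cyp2d12 was at 4.06, 7.07 and 8.51 with the combination and at 4.59, 5.70 and 7.34 with the control antibody, overlapping, and rose by 1.19 ± 0.33 (2.28-fold, adjusted p = 0.00507, n = 15 and 15). Cyp4b1, a fatty acid and xenobiotic hydroxylase, rose by 1.05 ± 0.30 (adjusted p = 0.00617) and Cyp2d26 by 0.72 ± 0.22 (0.00938). All flavin monooxygenase genes rose: Fmo5 by 0.70 ± 0.27 (adjusted p = 0.0423), Fmo1 by 0.62 ± 0.20 (0.0157) and Fmo2 by 0.61 ± 0.18 (0.00735). The call of Fmo5 was lost in 17 of 30 fits that left out 1 array, and without the 2 arrays of the other array series 13 of the 63 genes were called in place of 19. Fmo5 was also not called by limma without that series (adjusted p = 0.0951), the filter on dim genes (0.0627) or the experiment term (0.0625). In experiments 7 and 10 alone neither Fmo5 (0.204 and 0.142) nor Fmo1 (0.169 and 0.0864) was called. Fmo2 was not called in experiment 10 alone (0.188).

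Cyp2d22 rose by 0.46 ± 0.12 (adjusted p = 0.0023), Cyp4v3 by 0.44 ± 0.11 (0.00167), Cyp3a13 by 0.33 ± 0.11 (0.0177), Ugt2b35 by 0.29 ± 0.06 (0.00015), Sult1c2 by 0.29 ± 0.09 (0.0104), Sult1a1 by 0.27 ± 0.08 (0.00941) and Sult1d1 by 0.20 ± 0.05 (0.00129). Ugt2b35 had the smallest p of the set, with levels of 10.21, 10.58 and 10.87 against 10.12, 10.27 and 10.43. Cyp2c23, which fell second most in colitis, was at 0.19 with an adjusted p of 0.229. Its shared value of 2.7216 stood on 9 of 15 combination arrays and 4 of 15 control antibody arrays. Of the genes that rose in colitis, Cyp7b1 was at -0.17, Gsta4 at -0.04 (adjusted p = 0.548) and Cyp1b1 at -0.02, and none passed. In no comparison between treated colitic groups did any of the 63 genes have ranges without overlap. Such ranges were as rare among all genes, at 0.00798% for the combination minus control antibody and 0% in the other comparisons of treated groups.

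**Figure D3:**
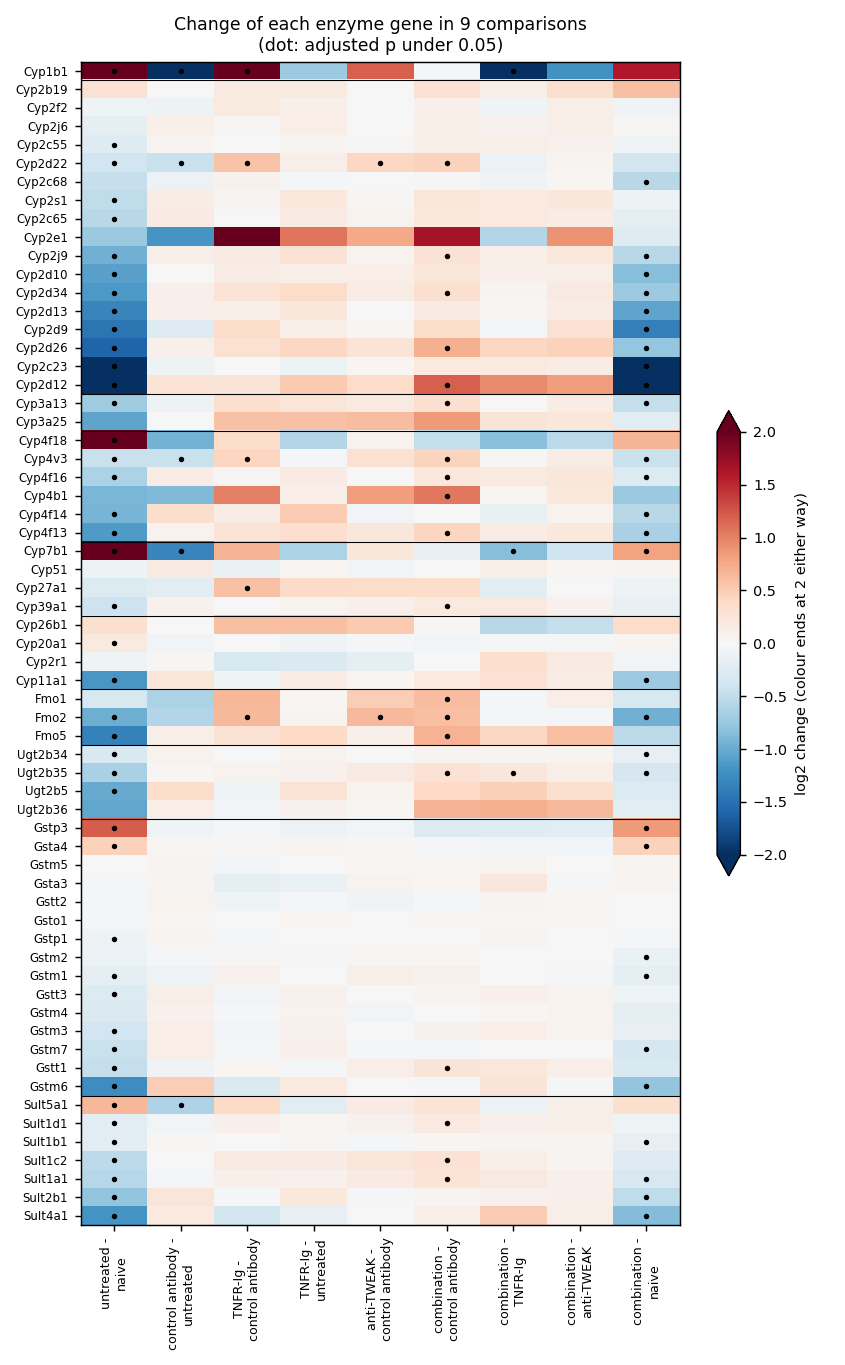
Heat map of the log2 change of each of the 63 genes (y axis, ordered by family) in 9 comparisons (x axis), red higher and blue lower, with colours ending at 2 either way and a dot at an adjusted p under 0.05. Combination minus control antibody has 19 dots, all on red cells, and combination minus anti-TWEAK has 0.

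Neutrophil markers were lower with the combination than with the control antibody for 7 of 10 genes, the list's mean level being 4.73, 7.07 and 9.66 against 6.85, 8.63 and 11.11. Of the colonocyte markers 2 of 12 were higher and 1 lower, at a list level of 11.84, 12.10 and 12.27 against 11.76, 11.90 and 12.03, and of the epithelial markers 1 of 12 was higher and 1 lower. Lymphocyte and plasma cell markers were higher for 6 of 9 genes, with a list level of 6.09, 6.80 and 7.85 against 5.45, 6.19 and 7.49. The exocrine pancreas list was at 5.12, 9.17 and 13.31 against 4.67, 5.05 and 12.78, and 1 of its 7 genes was called higher. Their part in the rise of the enzyme genes was not tested. Of the pathway lists, 14 of 31 other oxidising enzymes were higher and 3 lower, 7 of 18 transporters higher and 0 lower, 5 of 17 sensors higher and 0 lower, 5 of 14 other conjugation enzymes higher and 1 lower, and 3 of 14 cofactor genes in each direction. Vdr rose by 0.24 ± 0.05 (adjusted p = 7.42e-04), and Nr1i2 was at 0.14 ± 0.09 (adjusted p = 0.217).

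Set directly against TNFR-Ig, the combination differed in 3 genes, against 6.71% of all genes. Cyp1b1 changed by -3.02 ± 0.80 (adjusted p = 0.0156), at 2.08, 2.85 and 7.72 against 3.18, 7.21 and 9.26, and Cyp7b1 was at -0.86 ± 0.24 (0.0228). Ugt2b35 was higher by 0.22 ± 0.06 (0.018). The call of Ugt2b35 was lost in each experiment alone (adjusted p 0.12 and 0.28), with the compared groups alone (0.0621) and without the other array series (0.0589). In experiment 7 alone neither Cyp1b1 (-1.03, 0.65) nor Cyp7b1 (-0.38, 0.569) was called. Of the neutrophil markers 8 of 10 and of the macrophage markers 8 of 12 were lower too, and their part in the result was not tested. These groups also differ in antibody, since TNFR-Ig mice had none and combination mice had anti-TWEAK. Against anti-TWEAK limma called 0 of the 63 genes, and 0% of all genes; at an unadjusted p under 0.05, 7 of the 63 were higher and 1 lower, with 18% of all genes at that p. The genes with the smallest p there, none passing, were Cyp4f16 at 0.23 ± 0.08 (adjusted p = 0.18, 95% interval 0.06 to 0.39), Cyp2d12 at 0.83 ± 0.34 (0.204), Sult1d1 at 0.12 ± 0.05 (0.208), Ugt2b34 at 0.06 ± 0.03 (0.233) and Fmo5 at 0.59 ± 0.28 (0.25).

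Combination mice also differed from naive mice. Of the 63 genes 26 were lower and 3 higher, with a median change of -0.21, where 12% of all genes were lower and 13.3% higher. Cyp2d12 was at -2.54 ± 0.42 (adjusted p = 3.44e-06), Cyp2c23 was at -2.14 ± 0.15 (1.45e-18), Cyp2d9 at -1.37 ± 0.26 (4.60e-05), Cyp2d13 at -1.05 ± 0.18 (6.92e-06), Fmo2 at -0.96 ± 0.22 (7.79e-04), Sult4a1 at -0.87 ± 0.24 (0.00526), Cyp2d10 at -0.85 ± 0.15 (2.72e-05) and Gstm6 at -0.79 ± 0.24 (0.00993). The genes that were higher were Gstp3 at 0.85 ± 0.22 (0.00236), Cyp7b1 at 0.81 ± 0.29 (0.0299) and Gsta4 at 0.46 ± 0.05 (9.93e-10). The call of Cyp7b1 was lost in 2 of 23 fits that left out 1 array and within experiment 10 alone (0.60, adjusted p = 0.0776). In 7 of the 63 genes (11.1%) the ranges did not overlap, against 2.13% of all genes: Gsta4 higher, and Cyp2c23, Cyp2d10, Cyp2d12, Cyp2d34, Sult1a1 and Sult1b1 lower. Gsta4 was at 12.47 or above on every combination array and at 12.36 or below on every naive array. These ranges too are not adjusted for the experiment, and 8 combination arrays are of experiment 7.

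The experiments differed from each other as well. At equal groups 19 of the 63 genes were higher in experiment 10 than in experiment 7 and 5 lower, against 28.3% and 16.2% of all genes. Array series and experiment nearly coincide, so a difference between the array series cannot be told apart from one between the experiments. The largest rises were Cyp2e1 at 1.62 ± 0.67, Cyp2d12 at 0.61 ± 0.23, Fmo5 at 0.61 ± 0.19, Ugt2b36 at 0.57 ± 0.23, Sult4a1 at 0.36 ± 0.13, Cyp2d26 at 0.36 ± 0.15, Cyp2d10 at 0.35 ± 0.08 and Cyp2r1 at 0.35 ± 0.07. Of 64 fits that left out 1 colitic array, Cyp2e1 was not called in 27, Cyp2d26 in 24 and Ugt2b36 in 17. Without the filter on dim genes none of these 3 was called. Cyp2e1 was also not called by limma with array weights (adjusted p = 0.143), without the other array series (0.1) or with the colitic groups alone (0.0533). With quantile normalization Cyp2d26, Ugt2b36 and Cyp2d12 were not called (adjusted p 0.0627, 0.0692 and 0.0542). The falls were Fmo2 at -0.53 ± 0.12, Gstp3 at -0.48 ± 0.12, Gsta3 at -0.26 ± 0.08, Cyp20a1 at -0.16 ± 0.03 and Gsta4 at -0.09 ± 0.03.

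Within the experiments the counts of the treatment comparisons were unlike. In experiment 7 alone limma called 0 of the 63 genes for the antibody, TNFR-Ig and anti-TWEAK, where 0.0479%, 0% and 0% of all genes were called, and 2 higher and 0 lower for the combination, where 8.45% of all genes were called. In experiment 10 alone it called 16 higher and 1 lower for TNFR-Ig (15.6% of all genes), 14 higher and 0 lower for anti-TWEAK (14.9%), 14 higher and 1 lower for the combination (17.6%), and 1 higher and 7 lower for the antibody (17.8%). The median change of the 63 for the combination was 0.19 in experiment 7 and 0.18 in experiment 10, while for anti-TWEAK it was -0.05 and 0.20. Cyp1b1 with anti-TWEAK was at 2.55 ± 0.96 in experiment 7 and -0.54 ± 1.07 in experiment 10, a difference that did not pass (adjusted p = 0.214).

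Tests of the difference itself called 1 gene. Sult1c2, a sulfotransferase, did not respond alike to anti-TWEAK: in experiment 7 the control antibody arrays were at 11.14, 11.36 and 11.96 and the anti-TWEAK arrays at 10.89, 11.36 and 11.71, a change of -0.05 ± 0.11. In experiment 10 they were at 10.81, 11.11 and 11.72 and at 11.38, 11.78 and 12.06, a change of 0.58 ± 0.12. The difference between the experiments was 0.63 ± 0.16 (interaction, adjusted p = 0.0295), and 1.72% of all genes had such a call. At an unadjusted p under 0.05 the change with anti-TWEAK was higher in experiment 10 for 21 of the 63 genes and lower for 6. Of all genes 19.9% were at that p in either direction. For the antibody, TNFR-Ig and combination limma called 0 of the 63 genes. At an unadjusted p under 0.05 there were 1 higher and 5 lower, 12 higher and 1 lower, and 2 higher and 3 lower. Of all genes 13.2%, 10.4% and 9.57% were at that p.

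**Figure D4:**
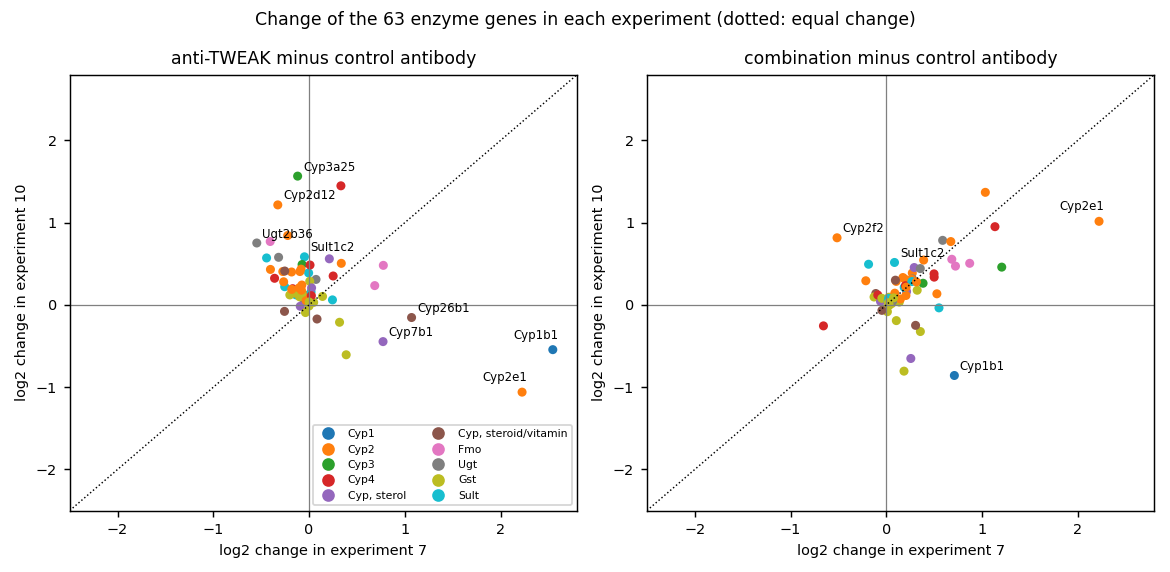
Log2 change of the 63 genes in experiment 7 (x axis) and experiment 10 (y axis) for anti-TWEAK and for the combination, each minus control antibody, coloured by family; the dotted line marks equal change. For the combination most points lie above 0 on both axes, and for anti-TWEAK the medians are -0.05 and 0.20; Sult1c2 is labelled beside the genes with the largest differences.

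Single genes varied among mice of the same group to very different degrees. The standard deviation within a group and experiment had a median of 0.30 over the 63 genes, with a lowest value of 0.07, and it was above 1 in 3: Cyp2e1 (2.73), Cyp1b1 (1.95) and Cyp3a25 (1.07). To describe with what they varied, each gene was set against the mean level of each of 13 marker lists over the 72 arrays, after the mean of each group in each experiment had been taken off. Of these 819 relations, 7 had an absolute Pearson r of 0.8 or more and are named for that, after the values were seen. Each had the smallest p that 100000 permutations within groups and experiments can give (1e-05). Adjusted over the 819, this p was 0.000134 for r and 0.000136 for rho. Adjusted values this low require that many of the other relations also had a p at or near the smallest, so this p does not set the 7 apart.

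Cyp2e1 varied with the adipocyte markers (r = 0.91, Spearman's rho = 0.92). The relation was there in experiment 7 (r = 0.93, n = 34), in experiment 10 (r = 0.88, n = 38) and without the 2 arrays farthest from the median (r = 0.90). The adipocyte list itself ranged from 6.20 to 8.79 among naive and from 4.92 to 9.23 among combination mice. Cyp1b1 varied with the macrophage markers (r = 0.87, rho = 0.85; 0.92 and 0.78 within experiments; 0.84 without the 2 farthest arrays) and inversely with the epithelial markers (r = -0.80, rho = -0.78; -0.80 in each experiment; -0.77). Cyp7b1 varied with the macrophage markers (r = 0.84, rho = 0.82; 0.88 and 0.76; 0.81) and with the neutrophil markers (r = 0.81, rho = 0.79; 0.81 in each experiment; 0.80). Cyp2s1 (r = 0.85, rho = 0.84; 0.87 and 0.81; 0.82) and Sult1b1 (r = 0.80, rho = 0.78; 0.88 and 0.66; 0.78) varied with the epithelial markers. Cyp2d12, the largest fall in colitis, was less closely related to any list, with its largest r at -0.55 for neutrophil markers and 0.47 for colonocyte markers.

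**Figure D5:**
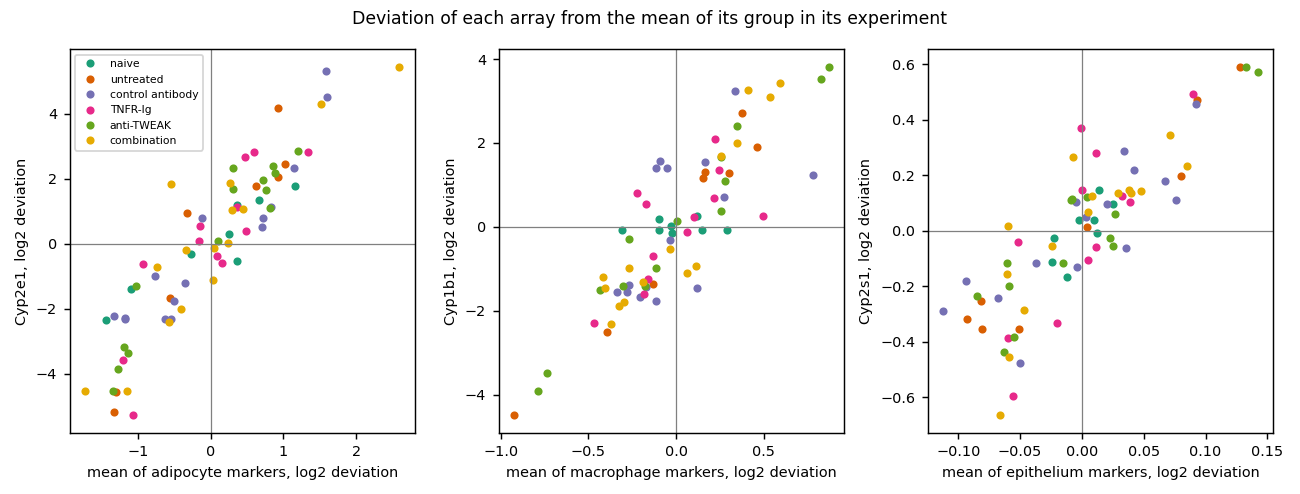
Deviation of a gene's log2 level from the mean of its group and experiment (y axis) against that of a marker list's mean level (x axis), 1 point per array (n = 72), for Cyp2e1 with adipocyte, Cyp1b1 with macrophage and Cyp2s1 with epithelial markers. The points, coloured by group, rise together, with Pearson r of 0.91, 0.87 and 0.85.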

How the data were processed

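RNA of 72 mouse colons was measured on Affymetrix 3 prime arrays. The authors deposited 1 table of log2 values for 45101 probe sets. The submitters' processing notes name RMA, GCRMA, R 2.11.1 and limma 3.4.5; which of RMA and GCRMA gave these values is not stated there. The lowest value is 2.0767, and 37.51% of values lie within 0.1 of this floor. The number of arrays limits the precision.

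Gene names came from the platform annotation: 34945 probe sets had 1 symbol, 932 several and 9160 none, and of the first 99.42% were matched to RefSeq by Entrez identifier. Each of 18193 genes was read by its brightest single-symbol probe set, and the 12534 with a mean above 2.4194, the 40th percentile, were tested. For 9 probe sets that name several genes of the rule no member was read. Groups came from the sample labels. The main test was limma 3.58.1 in R 4.3.3 (lmFit and eBayes, group and experiment terms, all arrays), adjusted by the Benjamini-Hochberg method; it was tested on simulated data. Python 3.11.15, pandas 2.3.3, numpy 2.4.6 and matplotlib 3.10.9 served for the rest. Same-numbered replicates did not deviate together on average (mean r = -0.006 over 132 pairs), so the main fit used no pairing. A mean near 0 cannot exclude pairing that affects some genes, and a fit with the replicate number as block is among the alternatives.

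The members and lists were chosen with earlier results of these data known, so their counts are descriptions. Genes named are the 8 called members with the largest rise and the 8 with the largest fall per comparison, the 3 brightest per family, the 5 with the smallest p where fewer than 5 were called, up to 4 called genes per pathway list, and a fixed set (Cyp1a1, Cyp1b1, Cyp2c55, Cyp2e1, Cyp3a13, Cyp4f14, Cyp11a1, Cyp27a1, Gsta4, Gstm1, Sult1a1, Fmo5, Ahr, Nr1i2, Nfe2l2); other members are named to complete a family and were chosen after their values were seen. Alternatives covered the filter, probe sets, experiment, block, normalization, weights, moderation, samples and single arrays.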

Additional observations from a re-analysis of the deposited data

Results flagged for a closer look

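In groups of 8 mice, a single array far from the rest was looked for in 40 of the named genes, in naive and untreated mice. It was found in 10 of 80 groups. The limit used has a nominal rate of 5%, which was not estimated from these data. Values at the floor or shared by arrays, and the 2 experiments within the untreated group, can change that rate. No excess is therefore read from the count. In untreated colitis Cyp2d12 was lowest at 4.06 (next 5.25), Cyp11a1 at 2.33 (next 2.81) and Cyp2r1 at 3.03 (next 3.4), and Cyp2c23 was highest at 3.4 (next 2.73) and Cyp3a25 at 3.70 (next 2.64). In naive colon Cyp2d13 was highest at 6.57 (next 6.03), Cyp2r1 at 4.12 (next 3.81) and Ugt2b35 at 11.19 (next 10.94), and Sult4a1 was lowest at 4.62 (next 5.13) and Cyp39a1 at 10.07 (next 10.34). The lowest value of Cyp2d12 also stood, to 4 decimals, on 1 anti-TWEAK and 1 combination array.

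The change of Sult1c2 with anti-TWEAK differed between the experiments by 0.63 on the log2 scale (interaction in limma, adjusted p = 0.0295).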

How the results depend on the processing

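For the genes named by rule in each comparison, no call changed direction under the alternatives in which direction was checked. Direction was not checked for the other members, over every probe set or in fits that left out 1 array. The counts of called genes stayed within 1.5 times for untreated minus naive (44; 41 to 49, and 39 to 46 with 1 array left out), combination minus naive (29; 27 to 34, 25 to 31) and experiment 10 minus experiment 7 (24; 20 to 27, 21 to 28). For the combination minus control antibody (19) experiment 7 alone gave 2 and leaving out 1 array 16 to 23. The antibody minus untreated (5) gave 0 in experiment 7, 8 in experiment 10, 9 with array weights, 3 with the compared groups alone, and 2 (without untreated replicate 5 of experiment 10) to 12 (without untreated replicate 5 of experiment 7). TNFR-Ig minus antibody (5) gave 0, 17, and 1 (without TNFR-Ig replicate 1 of experiment 10) to 8 (without TNFR-Ig replicate 5 of experiment 7). TNFR-Ig minus untreated (0) gave 3 in experiment 10, 2 with array weights, 1 without the filter, 1 without the other array series, and 0 to 2. Anti-TWEAK minus antibody (2) gave 0 and 14 in experiments 7 and 10, 6 with array weights, 1 without the filter, 1 over every probe set, 0 without the experiment term, 0 with the replicate block, and 0 (without control antibody replicate 1 of experiment 7) to 3. Combination minus TNFR-Ig (3) gave 0, 5, 10 with array weights, and 3 to 5. Combination minus anti-TWEAK (0) gave 1 in experiment 7. Treatment effects by experiment (1) gave 24 with array weights, 2 without the other array series and 0 over every probe set. The causes were not tested. The replicate block moved no other count by more than 1.5 times (41 for untreated minus naive, 20 for the combination). Single calls lost with the replicate block and kept without it were Cyp20a1 (0.12, adjusted p = 0.0877) and Gstp1 (-0.09, 0.073) for untreated minus naive, Sult5a1 (-0.60, 0.0552) for the antibody, Fmo2 (0.61, 0.073) and Cyp2d22 (0.38, 0.0872) for anti-TWEAK, Cyp7b1 (-0.81, 0.0508) for combination minus TNFR-Ig and Cyp2d26 (0.34, 0.0595) for the experiments. Dim genes near the floor, such as Cyp1b1 in naive mice, have changes bounded by it.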

Other observations

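Probe sets that name several genes hold further enzymes of these families. The 3 that bind the shared part of the Ugt1a locus, whose products glucuronidate bilirubin and phenols, fell in untreated colitis against naive colon by 0.27 ± 0.07, 0.20 ± 0.05 and 0.41 ± 0.08 (limma, adjusted p = 0.00191, 0.00167 and 4.43e-05). With the combination they were higher than with the control antibody by 0.18, 0.12 and 0.17 (adjusted p = 0.0063, 0.00934 and 0.0211). The probe set that names Gsta1 and Gsta2, alpha-class glutathione transferases, and Gm3776 went the other way. The probe set of Gsta2 alone had a mean of 2.37 and was too dim to be tested. Which of the named genes gave the shared signal cannot be told. The shared probe set had lowest, median and highest levels of 10.68, 10.87 and 11.12 in naive and 11.70, 12.07 and 12.52 in untreated colitic mice. The groups did not overlap, and it rose by 1.02 ± 0.16 (adjusted p = 3.18e-07). It was at -0.14 with the combination against the control antibody (adjusted p = 0.353) and still 0.96 above naive colon (adjusted p = 3.95e-07).

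In 15 of the 63 genes 1 exact value, to 4 decimals, stood on 3 or more arrays. Besides Cyp2c23 and Cyp11a1, Cyp2j9 was at 4.7821 on 13 arrays and Gstt2 at 10.3336 on 10, 2 of them naive.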
